A study of Mus musculus with 16 samples.

Results

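Hepatic expression was examined for 10 genes of lipid droplet storage, namely the coat genes Plin2, Plin4 and Plin5, the CIDE genes Cidea, Cideb and Cidec, the lipase gene Pnpla2, its inhibitor G0s2, and the triglyceride synthesis genes Dgat1 and Dgat2. They were chosen by symbol from the 55487 gene rows of the table of length-normalised transcript abundances (TPM), through the GRCm38 annotation, and all 10 were found. Livers came from 16 obese male C57BL6/J mice, each sequenced as 1 library, and fell into 4 groups of 4 named vehicle SP, G108 SP, vehicle HP and G108 HP. G108, a peptide agonist of the glucagon receptor, or vehicle was injected subcutaneously each day for 22 days at 2.5 nmol/kg, on a high-fat diet of standard protein (SP) or high protein (HP) content. According to the sample labels, mice were 10 weeks old when they began 8 weeks on a diet with 60% of energy from fat, and were culled after a 4 h fast. The study's methods give a younger starting age and a shorter period on that diet, followed by the SP or HP high-fat diet before treatment. They place the cull on day 22, earlier than the labels do. All 4 groups ate a high-fat diet throughout, so no lean liver enters the comparisons, and only males were sequenced.

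Hepatocytes store triglyceride in droplets, whose surface is covered by perilipins that limit the access of lipases. CIDE proteins sit on the same surface and move lipid between droplets or into nascent very low density lipoprotein. Adipose triglyceride lipase, encoded by Pnpla2, begins hydrolysis and is held back by G0s2, while both DGAT enzymes add the last fatty acid when triglyceride is made.

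Because TPM fix the total of each library, a few very abundant transcripts can shift the values of every other gene. The genes of the Mup family took 42.6% to 49.7% of TPM in vehicle SP against 18.3% to 23.0% in G108 SP. On HP they took 35.7% to 44.9% with vehicle and 18.2% to 29.6% with G108. The deposited TPM of the median gene differed by 0.60 on the log2 scale between G108 and vehicle on SP and by 0.09 on HP, a shift whose cause was not tested. Levels are therefore given as scaled TPM, that is TPM divided by a median-of-ratios factor for each library (0.681 to 1.54), after which the median gene differed by at most 0.01. Libraries held 27.8 to 45.03 M assigned reads. In vehicle SP mouse 4 and G108 HP mouse 3, mitochondrial transcripts took 24.0% and 37.3% of TPM, against 13.8% to 16.2% and 20.97% to 27.4% in the other mice of those groups. Leaving out both mice moved several uncalled differences between G108 and vehicle, which are given beside the genes concerned. Albumin was at 6376 TPM or more in every library. Of 6 adipocyte genes listed, Cfd, Adipoq, Retn and Plin1 never exceeded 1.19, 0.206, 0.0469 and 0.0382 TPM and Lep was at 0 throughout. Lipe, which is expressed in several cell types, was above 0 in all 16 libraries at up to 3.38 TPM. RNA of blood cells and macrophages was also present, with Hba-a2 at up to 686 TPM and Cd5l at up to 37.2 TPM. In whole liver, fewer cells of a type and less RNA per cell cannot be told apart.

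Levels per exon length spanned a wide range. Over 16 libraries, mean scaled TPM was 138 for Dgat2, 132 for Cideb, 102 for G0s2, 52.2 for Plin2, 16.1 for Pnpla2, 11.9 for Plin5, 7.97 for Dgat1, 1.74 for Cidec and 1.41 for Plin4. Dgat2 exceeded Cideb in 10 of 16 mice and Cidec exceeded Plin4 in 9 of 16, so these neighbours were not separated beyond their spread. G0s2 lay below Cideb in 13 mice and Dgat1 below Plin5 in 14, and every other step in the order held in all 16 mice. Cidea, best known from brown adipocytes, was represented by 8 reads in all. It was at 0 in 11 of 16 libraries and never exceeded 0.0701 TPM, where 3 reads, the limit that a count of 0 allows, correspond to 0.0681 to 0.131 TPM. Cidea was therefore not detectable as a difference at this depth and was not tested.

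**Figure D1:**
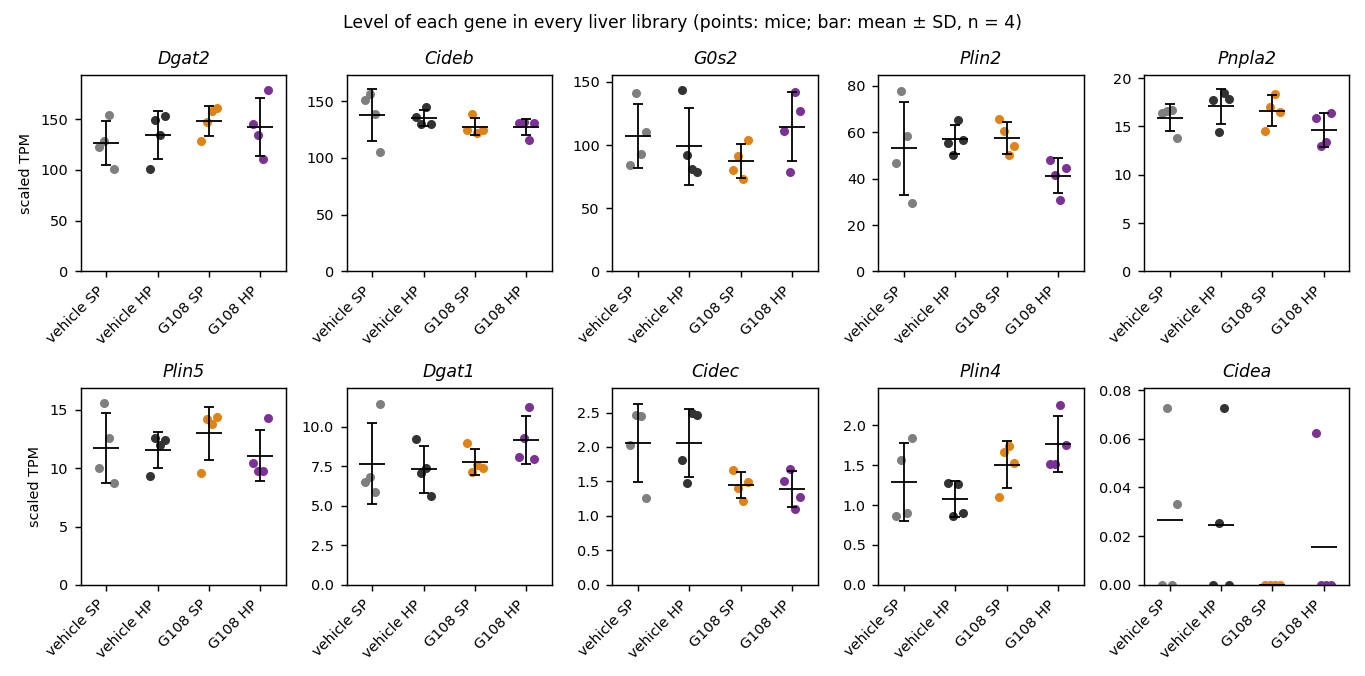
Scaled TPM (vertical axes, linear, from 0) of each of the 10 genes in the 4 groups, with 1 point per mouse and a bar for the mean ± SD (n = 4; mean only for Cidea). Group means lie close together for Cideb and Pnpla2, the 4 G108 HP mice lie below the 4 vehicle HP mice for Plin2 and above them for Plin4, and Cidec has lower means in both G108 groups.

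To ask whether the agonist altered these genes, G108 was set against vehicle on each diet and over both diets, in a limma model across the 11839 genes that averaged 1 TPM or more. Of the 9 genes tested, 0 were called at an adjusted p under 0.05 in any of these comparisons. Of all genes tested, 2.72% were called on SP, 1.22% on HP and 5.81% over both diets. At an unadjusted p under 0.05, 0 of 9 passed on SP against 17.7% of all genes, and 2 of 9, Plin4 and Cidec, passed on HP against 11.3% and over both diets against 17.0%. Without vehicle SP mouse 4 and G108 HP mouse 3 these counts were 2 of 9 on SP (Cideb and Cidec, against 15.1% of all genes), 3 of 9 on HP (against 11.4%) and 4 of 9 over both diets (against 18.9%). The same 0 calls were made by voom on reads recovered from the TPM. Among the 9 genes the median log2 difference was 0.06 on SP, -0.07 on HP and -0.03 over both diets. The 95% intervals of the 9 genes reached from -0.75 to 0.67 on SP, from -0.95 to 0.72 on HP and from -0.54 to 0.50 over both diets. The fit used log2(scaled TPM + 1), so the intervals still admitted rises in scaled TPM + 1 of up to 1.59-fold on SP and 1.65-fold on HP for single genes. Folds of scaled TPM itself are larger for scarce genes such as Plin4, which set the HP bound.

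The scaling decided how these genes read on SP. In TPM as deposited, 7 of 9 genes were called on SP, all higher with G108, with a median log2 difference of 0.74, but 77.6% of all genes were called there and 77.0% were called higher. Over both diets 5 of 9 were called, all higher, among 62.0% of all genes called and 61.0% called higher. On HP, 0 of 9 were called in TPM as deposited and 1.11% of all genes were. The summed TPM of the 10 genes as deposited was 381 ± 121 in vehicle SP and 635 ± 89.2 in G108 SP (SD, n = 4), and the summed scaled TPM was 463 ± 68.7 and 461 ± 24.4.

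Plin2, the main perilipin of hepatocyte droplets (minus strand of chromosome 4, 86648386 to 86670060, GRCm38), had its lowest group mean when G108 was combined with HP. Its scaled TPM was 46.8, 77.6, 58.2 and 29.7 in vehicle SP mice 1 to 4, and 55.4, 50.2, 65.1 and 56.7 in vehicle HP. With G108 it was 65.7, 60.6, 50.2 and 54.1 on SP, and 48.0, 41.5, 30.7 and 44.7 on HP. All 4 G108 HP mice lay below all vehicle HP mice and all G108 SP mice, and the 2 lowest of all 16 values came from the mice with the highest mitochondrial shares in their groups. Plin2 differed by -0.47 ± 0.22 (log2, SE) between G108 and vehicle on HP (limma, adjusted p = 0.454) and by 0.19 ± 0.22 on SP (adjusted p = 0.650). Of all genes tested, 8.15% had G108 and vehicle groups that did not overlap on HP, so Plin2 shares this with many genes. Without vehicle SP mouse 4 and G108 HP mouse 3, Plin2 differed by -0.34 on HP (adjusted p = 0.430) and by -0.05 on SP (adjusted p = 0.912). The HP groups overlapped in TPM as deposited, at 46.1 to 59.4 with vehicle and 25.8 to 55.3 with G108, and Plin2 was called higher with G108 on SP at 0.95 (adjusted p = 0.0118).

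Plin4, a perilipin with a long repeat region that is most abundant in adipocytes and muscle (minus strand of chromosome 17, 56100591 to 56109803), was scarce, at 120 to 321 reads per library. In vehicle mice 1 to 4 its scaled TPM was 0.858, 1.56, 0.903 and 1.85 on SP, and 1.28, 0.856, 1.26 and 0.894 on HP. G108 mice had 1.09, 1.67, 1.74 and 1.52 on SP, and 1.52, 1.51, 2.26 and 1.75 on HP. Every G108 HP mouse lay above every vehicle HP mouse, whereas both SP groups overlapped. The HP groups did not overlap for 8.15% of all genes tested. The difference was 0.41 ± 0.15 on HP (95% interval 0.10 to 0.72, adjusted p = 0.246), 0.15 ± 0.15 on SP (adjusted p = 0.593) and 0.28 ± 0.10 over both diets (adjusted p = 0.153) in the limma model. Leaving out vehicle SP mouse 4, which had the highest Plin4 of the vehicle mice, gave 0.34 over both diets with an adjusted p of 0.0494. Without that mouse and G108 HP mouse 3 the value was 0.29 over both diets (adjusted p = 0.0866) and 0.26 on SP (adjusted p = 0.392), and with the mitochondrial share of each library as a covariate the value over both diets was 0.15 (adjusted p = 0.290). Plin4 in TPM as deposited was called higher over both diets at 0.54 (adjusted p = 0.00241) and on SP alone at 0.60 (adjusted p = 0.00475). Of the 6 adipocyte markers listed, 3 were at 0 throughout vehicle SP, 2 throughout vehicle HP, 3 throughout G108 SP and 2 throughout G108 HP. Their summed TPM, mostly Lipe, was 2.08 to 3.89, 2.40 to 3.97, 2.13 to 3.42 and 2.29 to 3.00 in those groups. Adipoq was above 0 in 1 of 8 vehicle and 5 of 8 G108 libraries, while Cfd, another adipocyte gene, went the other way and was above 0 in 8 of 8 vehicle and 1 of 8 G108 libraries, at up to 1.19 TPM. The part of adipocyte RNA in the Plin4 values was not tested.

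Plin5, a perilipin of oxidative tissues that links droplets to mitochondria, neighbours Plin4 on the same strand of chromosome 17 (56111601 to 56117596). It ranged from 8.73 to 15.6 scaled TPM in vehicle SP, 9.31 to 12.6 in vehicle HP, 9.63 to 14.4 in G108 SP and 9.75 to 14.3 in G108 HP. These ranges overlapped in every pairing. The limma difference between G108 and vehicle was 0.15 ± 0.18 on SP (adjusted p = 0.643), with -0.07 ± 0.18 on HP (adjusted p = 0.932). The SP value was 0.04 without vehicle SP mouse 4 and G108 HP mouse 3 (adjusted p = 0.953), and in TPM as deposited Plin5 was called higher on SP at 0.87 (adjusted p = 0.0129).

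Of the CIDE genes, Cideb was abundant and even, while Cidec was scarce and had lower means with G108. Cideb, the hepatocyte member, which aids the lipidation of very low density lipoprotein (minus strand of chromosome 14, 55754050 to 55758458), was at 138 ± 23.0 scaled TPM in vehicle SP, 135 ± 7.13 in vehicle HP, 127 ± 7.37 in G108 SP and 127 ± 7.41 in G108 HP (SD, n = 4). The highest group mean exceeded the lowest by only 1.08-fold. Cideb differed by -0.10 ± 0.11 on SP (adjusted p = 0.652), with -0.09 ± 0.11 on HP (adjusted p = 0.852) in limma, but in TPM as deposited the sign on SP turned and it was called higher at 0.67 (adjusted p = 0.00933). The SP difference of Cideb was -0.22 without vehicle SP mouse 4 and G108 HP mouse 3 (adjusted p = 0.185).

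Cidec, which fuses small droplets into large ones and is known from adipocytes and steatotic liver (minus strand of chromosome 6, 113424634 to 113435760), was covered by 50 to 114 reads per library. In vehicle mice 1 to 4 its scaled TPM was 2.03, 2.47, 2.46 and 1.26 on SP, and 1.81, 1.48, 2.49 and 2.46 on HP. With G108 it was 1.67, 1.41, 1.22 and 1.49 on SP, and 1.51, 1.68, 1.10 and 1.27 on HP. Of the 8 vehicle mice, 6 exceeded every G108 mouse, and the exceptions were vehicle SP mouse 4 and vehicle HP mouse 2. No other of these genes had a smaller unadjusted p than Cidec over both diets, at -0.33 ± 0.10 (95% interval -0.54 to -0.11), which missed the threshold with an adjusted p of 0.0824 in limma. The difference was similar on SP at -0.30 ± 0.14 (adjusted p = 0.290) and on HP at -0.35 ± 0.14 (adjusted p = 0.344). Cidec was called over both diets at -0.36 (adjusted p = 0.0265) without vehicle SP mouse 4 and G108 HP mouse 3, at -0.39 (adjusted p = 0.0132) without vehicle SP mouse 4 alone, and at -0.37 (adjusted p = 0.0466) without vehicle HP mouse 2. A fit with the mitochondrial share as a covariate did not call Cidec over both diets, at -0.22 (95% interval -0.45 to 0.02, adjusted p = 0.149). Its values in that fit were -0.27 for SP mice and -0.16 for HP mice, neither called. In TPM as deposited Cidec differed by -0.04 over both diets and by 0.17 on SP (adjusted p = 0.356), a turn in sign. The log2(scaled TPM + 1) scale understates changes of genes this scarce, and with a pseudocount of 0.1 the difference over both diets was -0.48 (adjusted p = 0.0885). Over 16 libraries the genes whose levels followed Cidec most closely were Slc25a33 (r = 0.873), Cdo1 (r = 0.872) and Nlrp12 (r = 0.864), a description that includes the differences between groups.

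Upstream sequence is shown for the genes with an unadjusted p under 0.05 in any comparison of the main limma fit, that is scaled TPM of all 16 libraries without a covariate (Plin2, Plin4 and Cidec, the last with both of its annotated starts). It is also shown for G0s2, the only member whose searched window held a cAMP response element half-site, since glucagon receptors signal through cAMP. Each run is the 250 bases before a RefSeq transcription start in GRCm38.p6, read 5′ to 3′ on the gene's strand, which is the minus strand in all 5. Windows were searched on both strands for TGACG (a cAMP response element half-site), CACGTG (the E-box) and AGGTCA (a nuclear receptor half-site), and capitals mark a match on either strand. These motifs occur in 17.8%, 6.02% and 14.02% of 32851 windows of this length, respectively.
Plin2, chr4:86670060-86670309: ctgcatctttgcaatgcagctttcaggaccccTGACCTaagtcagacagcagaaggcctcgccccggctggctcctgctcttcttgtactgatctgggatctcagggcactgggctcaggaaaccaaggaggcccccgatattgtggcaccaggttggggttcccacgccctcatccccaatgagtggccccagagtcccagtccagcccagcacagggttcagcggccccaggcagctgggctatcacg
Plin4, chr17:56109783-56110032: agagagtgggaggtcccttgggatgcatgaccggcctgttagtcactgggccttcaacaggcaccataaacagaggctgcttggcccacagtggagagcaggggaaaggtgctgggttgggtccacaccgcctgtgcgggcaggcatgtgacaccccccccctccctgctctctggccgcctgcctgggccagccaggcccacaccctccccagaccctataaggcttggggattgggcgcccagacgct
Cidec, inner start, chr6:113434765-113435014: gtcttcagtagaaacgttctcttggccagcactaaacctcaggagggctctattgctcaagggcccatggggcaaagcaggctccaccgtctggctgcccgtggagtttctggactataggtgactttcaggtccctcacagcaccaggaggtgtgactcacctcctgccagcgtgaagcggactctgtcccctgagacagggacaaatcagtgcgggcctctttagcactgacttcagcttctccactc
Cidec, outer start, chr6:113435761-113436010: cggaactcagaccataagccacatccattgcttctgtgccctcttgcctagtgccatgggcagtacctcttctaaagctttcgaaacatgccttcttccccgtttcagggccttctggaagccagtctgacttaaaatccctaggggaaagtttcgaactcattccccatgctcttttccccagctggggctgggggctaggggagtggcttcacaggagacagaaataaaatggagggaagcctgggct
G0s2, chr1:193273189-193273438: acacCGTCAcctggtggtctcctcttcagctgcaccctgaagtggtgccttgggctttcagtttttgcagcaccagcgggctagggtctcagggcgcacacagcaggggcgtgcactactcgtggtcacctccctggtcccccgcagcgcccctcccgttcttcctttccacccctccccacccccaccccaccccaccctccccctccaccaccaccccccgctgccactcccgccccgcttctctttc
The G0s2 match begins 246 bases before its start and the Plin2 match to the nuclear receptor half-site 218 bases before. No window of Plin4 or Cidec held any of the 3 motifs, and the 2 Cidec starts lie 996 bases apart. Windows of 7 of the 10 genes were searched (9 windows), and none of Cidea, Dgat1 or Dgat2. Of the searched windows not shown, only 1 Plin5 window held a match, to AGGTCA. A match describes letters in the window and no binding was measured.

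In scaled TPM the lipase gene and its inhibitor gave no called difference, and their ratio overlapped between groups. Pnpla2 (plus strand of chromosome 7, 141455198 to 141460743) was among the least variable of the 9 genes, at 15.9 ± 1.40 scaled TPM in vehicle SP, 17.1 ± 1.82 in vehicle HP, 16.6 ± 1.62 in G108 SP and 14.7 ± 1.75 in G108 HP (SD, n = 4). The limma difference between G108 and vehicle was 0.06 ± 0.11 on SP (95% interval -0.17 to 0.29, adjusted p = 0.767), with -0.21 ± 0.11 on HP (-0.44 to 0.02, adjusted p = 0.510). Over both diets it was -0.07, whereas in TPM as deposited it turned to 0.35 and was called higher (adjusted p = 0.0428), as it was on SP at 0.79 (adjusted p = 0.00372). The SP difference of Pnpla2 was -0.00059 without vehicle SP mouse 4 and G108 HP mouse 3 (adjusted p = 0.999).

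G0s2 (minus strand of chromosome 1, 193272161 to 193273217) varied more than its target. In vehicle mice 1 to 4 it was at 84.4, 141, 93.1 and 110.1 scaled TPM on SP, and at 143, 92.4, 81.1 and 78.9 on HP. With G108 it was at 80.7, 91.8, 73.3 and 104 on SP, and at 111, 78.4, 142 and 127 on HP. In each group other than G108 SP, 1 mouse lay at 141 to 143, and no pair of groups separated. The differences between G108 and vehicle of -0.27 ± 0.22 on SP (adjusted p = 0.508), with 0.22 ± 0.22 on HP (adjusted p = 0.806), were not called in limma, and the SP value turned in sign in TPM as deposited. The HP value of G0s2 was 0.11 without vehicle SP mouse 4 and G108 HP mouse 3 (adjusted p = 0.940). The ratio of Pnpla2 to G0s2, a measure within a library that no scaling alters, was 0.154 ± 0.0382 in vehicle SP, 0.183 ± 0.0520 in vehicle HP, 0.194 ± 0.0399 in G108 SP and 0.133 ± 0.0300 in G108 HP (SD, n = 4).

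Dgat2, which channels newly made fatty acids into triglyceride in liver (minus strand of chromosome 7, 99153658 to 99182719), exceeded Dgat1, the isoenzyme that also re-esterifies fatty acids (minus strand of chromosome 15, 76502015 to 76511953), in every mouse, by 8.84-fold to 27.4-fold per exon length. Dgat2 was at 123, 128, 154 and 101 scaled TPM in vehicle SP mice 1 to 4, at 101, 149, 135 and 153 in vehicle HP, at 128, 147, 158 and 161 in G108 SP, and at 145, 134, 110.3 and 179 in G108 HP. Dgat1 was at 6.48, 6.83, 5.90 and 11.4 in vehicle SP, at 9.21, 7.07, 7.36 and 5.60 in vehicle HP, at 8.95, 7.15, 7.56 and 7.36 in G108 SP, and at 8.11, 9.30, 11.2 and 7.96 in G108 HP. Groups overlapped for both genes in every pairing, and in each of the 4 groups the mouse with the highest Dgat1 had the lowest Dgat2. The limma difference between G108 and vehicle was 0.24 ± 0.17 on SP (adjusted p = 0.458), with 0.08 ± 0.17 on HP (adjusted p = 0.920) for Dgat2, and 0.05 ± 0.18 (adjusted p = 0.882) and 0.29 ± 0.18 (adjusted p = 0.603) for Dgat1. Without vehicle SP mouse 4 and G108 HP mouse 3, the SP and HP differences were 0.14 and 0.19 for Dgat2 (adjusted p of 0.738 and 0.752) and 0.24 and 0.20 for Dgat1 (adjusted p of 0.418 and 0.636). In TPM as deposited both were called higher on SP, Dgat2 at 1.01 (adjusted p = 0.00591) and Dgat1 at 0.74 (adjusted p = 0.00168).

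**Figure D2:**
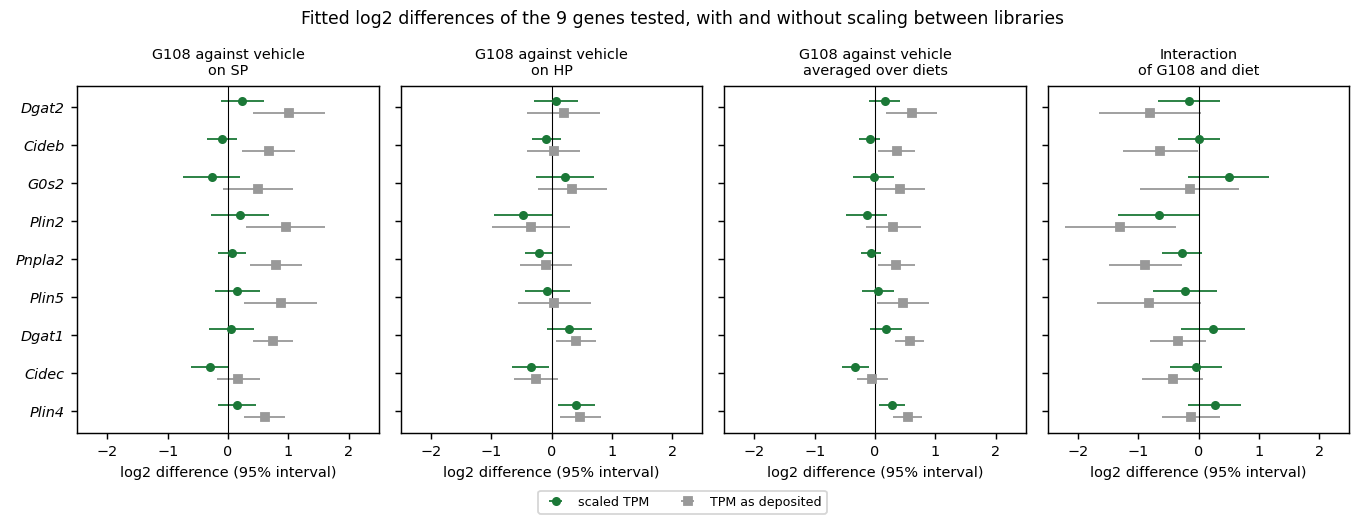
Fitted log2 differences (horizontal axes) with 95% intervals for the 9 genes tested, in scaled TPM (circles) and TPM as deposited (squares). On SP the scaled values lie between -0.30 and 0.24 while the values as deposited lie between 0.17 and 1.01, and Cidec and Plin4 are the genes whose scaled intervals exclude 0 on HP and over both diets.

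Dietary protein was then compared within each treatment, and the response to G108 between diets. These comparisons share groups with those above. Of 9 genes, 0 were called for HP against SP with G108, for HP against SP with vehicle or for the interaction of G108 and diet, in which 0% of all genes tested were called in scaled TPM and likewise 0% in TPM as deposited. At an unadjusted p under 0.05 in limma, 639 (5.40%), 466 (3.94%) and 854 (7.21%) of all genes passed in the 3 comparisons, and of the 9 genes Plin2 passed in the first, at -0.49 ± 0.22 (adjusted p = 0.858). Its G108 HP mice lay below its G108 SP mice without overlap, as the 2 groups did not overlap for 4.27% of all genes. Its interaction of -0.66 ± 0.32 had an adjusted p of 0.575. The interaction was -0.28 without vehicle SP mouse 4 and G108 HP mouse 3 (adjusted p = 0.998), -0.34 with the mitochondrial share as a covariate and -1.30 in TPM as deposited (adjusted p = 0.0799), and was not called in any of these. For G0s2 the interaction was 0.50 ± 0.32 with a 95% interval from -0.18 to 1.17 (adjusted p = 0.577). With vehicle, the 9 genes differed between diets by -0.13 to 0.17.

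Some of the 9 genes also varied together among mice of the same group. Of their log2 values as differences from the group mean, over 16 libraries, Plin2 correlated with Cideb (r = 0.84) and Cidec (r = 0.82), Plin5 with Dgat2 (r = 0.78), and Dgat1 inversely with Dgat2 (r = -0.86). Many other pairs were correlated less closely, such as Cideb with Cidec (r = 0.69) and Dgat1 inversely with Plin5 (r = -0.69). The median size of r over the 36 pairs, whatever its sign, was 0.47, and only 7 pairs had r within 0.3 of 0. G0s2 was at r = 0.02 with Plin2, -0.06 with Cideb and 0.07 with Pnpla2, and Plin4 at r = 0.05 with Plin5 and 0.04 with Pnpla2. These libraries also share differences in mitochondrial share. Plin2, Cideb and Cidec lay furthest below their group means in vehicle SP mouse 4, at -0.74, -0.37 and -0.41. They were also below them in G108 HP mouse 3, at -0.39, -0.13 and -0.18. The correlations among genes were not recomputed without these mice. Against the mitochondrial share, Dgat2 fell with r = -0.839 (rho = -0.856) and Dgat1 rose with r = 0.807 (rho = 0.832), with adjusted p of 8.1e-04 and 0.00144 for r, and of 0.00355 for both rho, from 100000 permutations within groups over a family of 9 genes. Leaving out vehicle SP mouse 4 and G108 HP mouse 3 gave r = -0.787 and 0.733. The other 7 genes had adjusted p of at least 0.0705 for r. Such relations were common in these libraries, since r over all genes tested had a median of -0.003 and lay between -0.820 and 0.813 at percentiles 5 and 95. With the mitochondrial share as a covariate, 3186 of 11839 genes were called between G108 and vehicle over both diets, against 688 without it. Of the 9 genes 1 was called there, Dgat2, higher with G108 by 0.38 (adjusted p = 0.00976 in limma), against 0.16 without the covariate (adjusted p = 0.580). Dgat1 turned from 0.17 to -0.06 without being called. The shares themselves were higher in the G108 groups, with medians of 16.1% in vehicle SP, 17.5% in vehicle HP, 19.0% in G108 SP and 24.2% in G108 HP, so the covariate moved with the treatment.

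**Figure D3:**
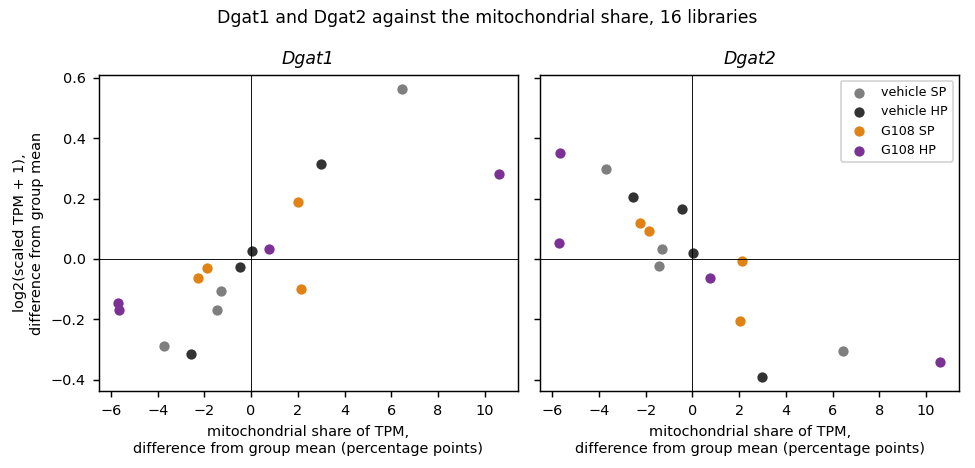
Difference of each library from its group mean in log2(scaled TPM + 1) of Dgat1 and Dgat2 (vertical axes) against the same difference in the mitochondrial share of TPM, in percentage points (horizontal axes), for 16 libraries coloured by group. Dgat1 rises with r = 0.807 and Dgat2 falls with r = -0.839.

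Around these genes, 45 others of droplet formation, lipolysis, triglyceride synthesis and fatty acid uptake were listed, of which 38 were abundant enough to be tested. On SP, 1 of these was called higher and 3 lower with G108, on HP 0 higher and 1 lower, and over both diets 1 higher and 6 lower, where 2.72%, 1.22% and 5.81% of all genes tested were called. The medians of the 38 were -0.05, -0.22 and -0.13. In TPM as deposited the counts were 21 higher and 1 lower on SP, 0 and 1 on HP, and 14 and 2 over both diets, where 77.6%, 1.11% and 62.0% of all genes were called and, on SP and over both diets, 77.0% and 61.0% called higher. In the diet comparisons and the interaction 0 of 38 were called in limma, with 3, 2 and 3 at an unadjusted p under 0.05.

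In triglyceride synthesis, Gpat4, an acyltransferase of the first step located in the endoplasmic reticulum, rose with G108. It was at 11.1 to 18.1 scaled TPM in vehicle SP and 22.7 to 31.5 in G108 SP, and at 14.5 to 20.1 and 21.9 to 31.4 on HP, without overlap on either diet. G108 and vehicle groups did not overlap for 9.21% of all genes tested on SP and for 8.15% on HP. The rise was 1.01 ± 0.16 on SP (adjusted p = 0.00301) and 0.78 ± 0.11 over both diets (adjusted p = 7.23e-04) in limma, with 0.55 ± 0.16 on HP (adjusted p = 0.131). Gpam, the mitochondrial acyltransferase of the same step, fell by 0.34 over both diets (adjusted p = 0.0380), a call lost under 13 of 25 alternatives and reversed in sign to 0.09 in TPM as deposited.

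Among droplet proteins, Fitm1, which helps to partition triglyceride into droplets, fell by 1.33 ± 0.20 on SP (adjusted p = 0.00188) and by 0.93 ± 0.14 over both diets (adjusted p = 9.95e-04). It was at 27.4 to 47.9 scaled TPM in vehicle SP and 11.98 to 15.6 in G108 SP, without overlap, as for 9.21% of all genes tested. On HP it was at 24.0 to 40.9 with vehicle and 15.6 to 28.4 with G108, where the difference was -0.52 ± 0.20 (adjusted p = 0.282). The interaction of 0.81 ± 0.28 was not called (adjusted p = 0.575), so a difference of the Fitm1 response between diets was not shown. The calls of Gpat4 and Fitm1 on SP held under all 26 alternatives and those over both diets under all 25.

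Among lipases, the carboxylesterase genes Ces1g and Ces3a fell with G108. Ces1g was at 22.0 to 56.3 scaled TPM in vehicle SP and 11.9 to 13.9 in G108 SP, and at 24.3 to 42.8 and 4.77 to 13.6 on HP. It fell by 1.42 ± 0.30 on SP (adjusted p = 0.0191), by 1.85 ± 0.30 on HP (adjusted p = 0.0134) and by 1.64 ± 0.21 over both diets (adjusted p = 3.26e-04). The SP call was lost under 8 of 26 alternatives and the HP call under 4. Without vehicle SP mouse 4 and G108 HP mouse 3 the HP value of Ces1g was -1.58 (adjusted p = 0.0566). Ces3a fell by 0.38 ± 0.07 over both diets (adjusted p = 0.00548) and by 0.43 on SP (adjusted p = 0.0362), a call on SP that 15 of 26 alternatives lost, and in TPM as deposited its sign turned to 0.34 on SP and 0.07 over both diets. Carboxylesterase genes lie in clusters of close paralogs, so reads shared between copies make both values uncertain.

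Among uptake genes and regulators, Pparg, the nuclear receptor that drives lipid storage genes, fell by 0.51 ± 0.11 over both diets (adjusted p = 0.0121), from 1.37 to 2.70 scaled TPM in vehicle SP and 1.85 to 3.38 in vehicle HP to 0.971 to 1.70 and 0.954 to 1.39 with G108. On the diets taken singly it was not called (adjusted p of 0.236 with SP, 0.0610 with HP). Of 24 alternatives, 1 lost the call over both diets, TPM as deposited, where Pparg differed by -0.23 (adjusted p = 0.175). Slc27a2, a fatty acid transporter and acyl-CoA synthetase, fell by 0.39 ± 0.10 over both diets (adjusted p = 0.0276), a call that 8 of 25 alternatives lost and whose sign turned to 0.06 in TPM as deposited.

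**Figure D4:**
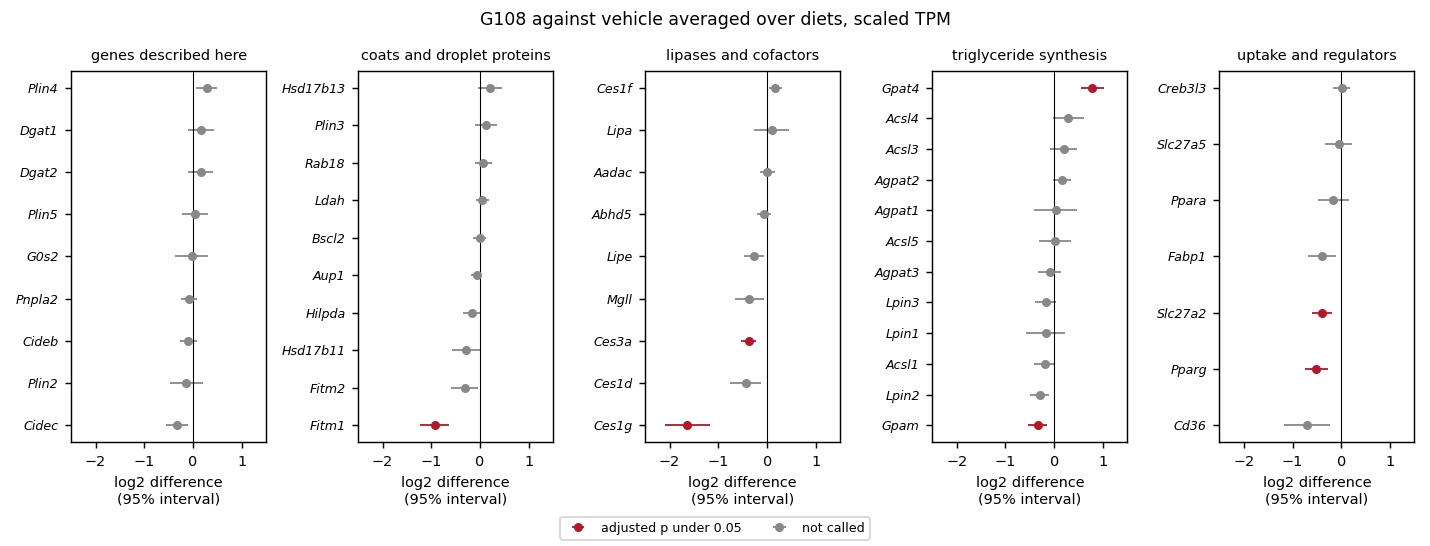
Fitted log2 differences between G108 and vehicle over both diets in scaled TPM, with 95% intervals, for the 9 genes tested and 38 others grouped by role, with genes at an adjusted p under 0.05 in red. The 9 genes lie between -0.33 and 0.28 with 0 in red, and red points elsewhere are Gpat4 above 0 and Fitm1, Ces1g, Ces3a, Gpam, Slc27a2 and Pparg below 0.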

How the data were processed

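RNA from 16 livers was sequenced, 1 library per mouse. The authors checked reads with FastQC 0.11.8, aligned them to GRCm38 with HISAT2 2.0.5, assigned them to genes with featureCounts and provided the deposited TPM, in which reads per exon length are scaled to a fixed library total. Their differential test, DESeq2 1.36.0, was run on counts that were not used here. All value columns of the table were used and assigned to groups by the sample labels.

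Symbols and exon lengths came from GENCODE release 21 (55227 of 55487 identifiers). Low TPM lie on steps of 1 read, and 98.9% of 86591 values of up to 5 reads lay within 0.02 of a whole read, which gave each library's depth. TPM were divided by median-of-ratios factors from 11591 genes and compared as log2(scaled TPM + 1) with limma (version 3.58.1, R version 4.3.3), fitting 4 group means and an intensity trend to genes averaging 1 TPM or more. Benjamini-Hochberg adjustment ran over 11839 genes, with calls under 0.05. On simulated data for G108 against vehicle on SP, where 200 of 11839 genes were shifted by 1 on the log2 scale, 80% were recovered and 4.76% of calls were wrong. The simulated spread was independent between genes, and the shift exceeded the scaled differences of the 9 genes on SP (-0.30 to 0.24). These rates therefore do not carry over to the 9 genes. Read recovery was also tested on simulated data. The limit given for Cidea comes from reads and covers counting error only. Intervals of the fitted differences come from the limma model and include the spread among mice of the same group.

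The 10 genes, the wider list and the marker lists were chosen with earlier results of these data known. Named genes were the 10, each listed gene called in any comparison, and the 3 genes most correlated with the member of smallest unadjusted p. Alternatives were TPM as deposited, TPM rescaled without mitochondrial and Mup genes, a pseudocount of 0.1, no filter, a mean TPM of at least 5, the mouse number as a block, voom on recovered reads, only the groups compared, and each library left out. Chosen after seeing the data were the omission of the 2 libraries of high mitochondrial share and that share as a covariate. No library duplicated another, as 0% of their values were shared, and r within groups was 0.929 to 0.989.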

Additional observations from a re-analysis of the deposited data

Results flagged for a closer look

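Among 72 groups of 4 values examined (9 genes, 7 further named genes, the mitochondrial share and the scaling factor), 7 held a mouse whose gap to the nearest other took a larger part of the range of the group than Dixon's 95% critical value allows. Chance gives about 1 in 20. For Plin5, G108 SP mouse 1 was low at 9.63 scaled TPM and G108 HP mouse 4 was high at 14.3. For Cideb, G108 SP mouse 2 was high at 138 and G108 HP mouse 3 low at 116. In vehicle SP mouse 4, Pnpla2 was low at 13.8 and Dgat1 high at 11.4, and this mouse had the highest mitochondrial share of its group. Slc27a2 was low at 145 in G108 HP mouse 3, the other mouse of high mitochondrial share. The mitochondrial shares of vehicle SP mouse 4 and G108 HP mouse 3 were themselves not flagged by this rule.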

How the results depend on the processing

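The count of 0 called among the 9 genes became 7 on SP and 5 over both diets in TPM as deposited, 1 over both diets without the 2 libraries of high mitochondrial share and 1 with that share as a covariate, and 0 to 2 when each library was left out, and it stayed at 0 in the other comparisons and alternatives run. In TPM as deposited the sign turned for Cideb (0.67 on SP, 0.36 over both diets), Pnpla2 (0.35 over both diets), Ces3a (0.34 on SP, 0.072 over both diets), Slc27a2 (0.056 over both diets) and Gpam (0.087 over both diets). Of all genes, 322 were called on SP, against 9185 in TPM as deposited, 213 with the mouse number as a replicate block, 103 with only the groups compared, 2006 with the mitochondrial covariate and 158 to 471 with a library left out. On HP 145 were called, against 43 with no filter, 77 at a mean TPM of at least 5, 35 with the replicate block, 52 with only the groups compared, 15 without the 2 libraries, 0 with the covariate (limma) and 17 to 210 with a library left out. Over both diets 688 were called, against 7335 in TPM as deposited, 396 at a mean TPM of at least 5 and 3186 with the covariate. For HP against SP with vehicle, 1 gene was called with no filter, 1 with the replicate block and 0 to 2 with a library left out, and 1 was called for the interaction with no filter. The cause of these shifts was not tested. Mouse numbers did not pair the samples: same-numbered mice correlated at a median r between -0.07 and -0.01, and 4 of 16 libraries correlated best with their own number. The replicate block called 0 of the 9 genes, as without it, and ended the SP calls of Ces1g (adjusted p = 0.0555) and Ces3a (adjusted p = 0.0896) in limma and no other call of a named gene. Single libraries whose omission ended a call were vehicle SP mice 2 and 3 and G108 SP mice 2, 3 and 4 for Ces1g on SP, vehicle HP mouse 4 for Ces1g on HP (-1.80, adjusted p = 0.0566), and 9, 7 and 9 libraries for Ces3a on SP, Slc27a2 over both diets and Gpam over both diets, with differences of -0.44 to -0.39, -0.40 to -0.35 and -0.35 to -0.29. Over both diets Pparg lost its call in TPM as deposited (-0.23, adjusted p = 0.175). It was called on HP without vehicle SP mouse 2 or 4 or vehicle HP mouse 1. The count on SP fell by over 1.5 times without vehicle SP mouse 3 or G108 SP mouse 2, 3 or 4, and the count on HP without vehicle HP mouse 3 or 4, G108 SP mouse 2 or G108 HP mouse 2, 3 or 4. Uncalled differences changed sign in 24 of 96 gene results in TPM as deposited, 17 without the 2 libraries and 21 with the covariate.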
